A study of Mus musculus with 12 samples.

Results

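The genes described here are 5 that encode parts of the phagocyte NADPH oxidase (Cybb, Cyba, Ncf1, Ncf4 and Rac2) and 2 that lie beside Ncf1 on mouse chromosome 5 (Gtf2ird1 and Gtf2ird2). They are 7 of 48709 gene rows in the deposited count table and were found by matching the Ensembl identifiers, without version, to GRCm38. Gtf2ird1 was included because its counts were seen to be far lower in both liver groups than in the spleen, and Gtf2ird2 because it overlaps Ncf1 on the other strand. The values of Gtf2ird1 against the spleen are therefore given as a description, with no test.

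Neutrophils were sorted as Ly6G-high, Ly6C-intermediate, CD11b+ and CD45+ cells from young adult male C57BL/6N mice. Control splenic neutrophils came from the spleens of untreated mice (n = 3), whereas 24-hour neutrophils (n = 4) and 72-hour neutrophils (n = 5) came from livers at 24 and 72 hours after 1 intraperitoneal dose of CCl4 (1 mL/kg in corn oil), a hepatotoxin that kills hepatocytes around the central veins. The control differs from both liver groups in organ, in tissue dissociation and in CCl4, and these cannot be told apart; the same 3 spleen libraries serve both liver comparisons. The labels number the replicates without naming animals, so p-values measure the spread between these samples.

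The NADPH oxidase of neutrophils is a membrane enzyme that passes electrons from NADPH to oxygen and so makes superoxide, the starting point of the oxidative burst used against microbes. Cybb (gp91phox) and Cyba (p22phox) form the membrane part. Ncf1 (p47phox) and Ncf4 (p40phox) belong to the cytosolic part, which joins it on activation together with the small GTPase Rac2. Gtf2ird1 and Gtf2ird2 belong to the TFII-I family of transcription regulators and encode no part of the enzyme.

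Of the uniquely aligned reads, 2.71% to 3.18% per library were counted on a gene, which left 1267089 to 3017403 counts per library. All of the 20 rows with the most counts share exon bases with a gene on the other strand, against 39.8% of the 12488 genes tested, and such rows hold 85% of all counts. The kit was stranded, but the strand setting of the counter is not given in the sources used here. Which strand each row reports is therefore not known and was not tested. With a setting opposite to the kit, the counts of every gene would be antisense reads, also for Cybb, Cyba, Ncf4 and Rac2, which have no exon partner on the other strand. The levels below are therefore those of the rows as deposited. Higher and lower refer to the counts of a row, whose strand is not known. All 8 neutrophil markers were detected in each group, with a summed level of 1816 to 7087 normalized CPM in the spleen, 1140 to 2636 at 24 hours and 2079 to 2777 at 72 hours. Normalized CPM are counts per 1e6 counts on tested genes, with library sizes adjusted by TMM factors (trimmed mean of M values). Among these markers Ly6g, whose product was used for sorting, had 1.04 to 37.7 normalized CPM. Summed markers of hepatocytes (0 to 18 normalized CPM), T cells (1.20 to 7.07), erythroid cells (0.345 to 5.84) and endothelial cells (3.47 to 11.7) were low in all groups, those of B cells were at 24.0 to 61.2, and those of macrophages at 89.9 to 204.4, with Clec4f and C1qa at 0 in every library. The 5 markers of immature neutrophils summed to 684.7 to 2012.3, nearly all of it on Prtn3, Mki67 and Top2a, which were among the genes tested. Elane was at 0 in every library and Mpo had at most 2 counts. Spleen replicate 3 stood apart from the other spleen libraries in its marker sum (1816 against 7056 and 7087). Most of that gap lay in S100a8 and S100a9, the latter at 338.6 against 3936.6 and 3969.2, and at 215.2 to 865.8 in the liver. Among the spleen libraries, Csf3r was highest in replicate 3 (568.8 against 525.6 and 463.2) and the other markers were lowest there. The sum is therefore not a measure of neutrophil content. In 72-hour replicates 2 and 3, 1.91% and 1.98% of reads were unaligned, against 49.6% to 50.7% elsewhere.

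RefSeq promoters (GRCm38.p6) were found for 5 of the 7 genes, not for Ncf4 and Rac2. Of these, 4 are shown, because they set the 2 genes that were lowest in the liver, Cybb and Gtf2ird1, beside the 2 overlapping genes, Ncf1 and Gtf2ird2. Each runs 5′ to 3′ on the strand of its gene, from 250 bases before to 50 after the RefSeq start, at chrX:9469275-9469574 (- strand), chr5:134456667-134456966 (- strand), chr5:134229576-134229875 (- strand) and chr5:134183788-134184087 (+ strand), in the order below. Capitals mark every match, on either strand, to the core letters bound by the myeloid factor PU.1 (GAGGAA). They also mark the GC box, bound by Sp factors (GGGCGG), the box bound by the factor NF-Y (CCAAT) and the TATA box (TATAAA).
Cybb: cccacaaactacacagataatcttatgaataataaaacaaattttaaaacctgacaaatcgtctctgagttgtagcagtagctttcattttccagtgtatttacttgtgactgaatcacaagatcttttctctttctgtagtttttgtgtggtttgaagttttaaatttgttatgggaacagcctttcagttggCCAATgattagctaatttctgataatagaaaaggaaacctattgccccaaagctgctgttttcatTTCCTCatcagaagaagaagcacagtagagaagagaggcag
Gtf2ird1: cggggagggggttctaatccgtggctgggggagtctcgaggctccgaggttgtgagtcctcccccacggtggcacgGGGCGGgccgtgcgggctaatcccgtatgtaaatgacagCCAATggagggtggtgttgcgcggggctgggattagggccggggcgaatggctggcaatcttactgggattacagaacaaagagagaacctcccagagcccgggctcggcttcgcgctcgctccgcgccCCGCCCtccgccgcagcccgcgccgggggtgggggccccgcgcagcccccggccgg
Ncf1: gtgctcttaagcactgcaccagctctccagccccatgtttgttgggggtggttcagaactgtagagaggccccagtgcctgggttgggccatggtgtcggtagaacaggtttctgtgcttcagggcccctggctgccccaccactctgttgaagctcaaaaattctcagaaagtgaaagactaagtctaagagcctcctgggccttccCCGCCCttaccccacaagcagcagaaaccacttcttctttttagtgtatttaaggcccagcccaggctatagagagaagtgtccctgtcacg
Gtf2ird2: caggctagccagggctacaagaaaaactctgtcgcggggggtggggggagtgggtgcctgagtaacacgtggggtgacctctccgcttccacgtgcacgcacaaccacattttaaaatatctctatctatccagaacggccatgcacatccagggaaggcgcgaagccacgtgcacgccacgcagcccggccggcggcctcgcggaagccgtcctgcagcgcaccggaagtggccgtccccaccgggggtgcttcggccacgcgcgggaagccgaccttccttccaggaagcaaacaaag

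The Cybb promoter was AT-rich (35.3% G and C) and held 1 NF-Y box, 56 bases before the start, and 1 PU.1 core on the other strand, whereas the Gtf2ird1 promoter was GC-rich (70.3%) with 2 GC boxes and 1 NF-Y box. The Ncf1 promoter held 1 GC box and the Gtf2ird2 promoter none of these motifs. The Cyba promoter (60.7% G and C) held 2 GC boxes. None of the 5 held the TATA box. Over all 32851 promoters of this length, 28.3% held the PU.1 core, 35.7% the GC box, 37.4% the NF-Y box and 13.6% the TATA box, so that each match was to a common run of letters. No motif was found in both Cybb and Gtf2ird1 other than the NF-Y box.

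Cybb, which encodes the electron-carrying subunit, was lower in liver neutrophils than in those of the spleen at both times. In the spleen it had 235.7, 265.0 and 75.9 normalized CPM. At 24 hours it had 49.8, 46.2, 18.4 and 31.4, and at 72 hours 20.6, 26.9, 17.0, 18.1 and 9.08. The lowest spleen library, replicate 3, lay above every liver library, so neither liver group overlapped the spleen, whereas the liver groups overlapped each other. Cybb was 5.24-fold lower at 24 hours (log2 fold change -2.39 ± 0.39 SE, adjusted p = 4.53e-04, edgeR quasi-likelihood test) and 10.3-fold lower at 72 hours (-3.37 ± 0.37, adjusted p = 7.76e-06). Calls here need an edgeR p, adjusted over all genes tested, under 0.05 together with a log2 change of 0.5 or more in either direction.

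Between the liver groups, the mean of Cybb was 36.4 ± 14.4 normalized CPM (SD) over the 24-hour libraries and 18.3 ± 6.45 over those of 72 hours, and the difference did not pass the test (log2 fold change -0.98, 95% confidence interval -1.72 to -0.23, edgeR adjusted p = 0.121). It passed without spleen replicate 3 (adjusted p = 0.0497). Both calls against the spleen stood whichever of the 12 libraries was left out, at log2 fold changes of -2.77 to -2.09 at 24 hours and -3.75 to -3.07 at 72 hours. Spleen replicate 3 was also low in S100a8, with 80.1 normalized CPM against 1308 and 1372 in the other spleen libraries. Its part in the Cybb values was measured by leaving it out, which gave the larger differences of -2.77 and -3.75.

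**Figure D1:**
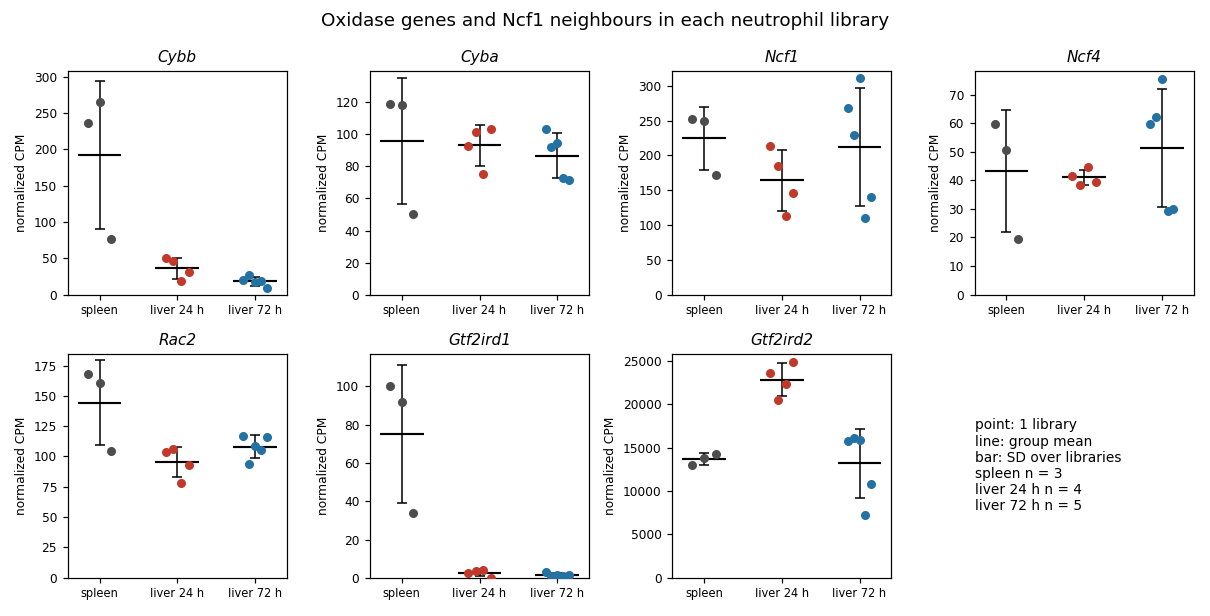
Normalized CPM of the 7 genes (linear axes from 0) in each library of the spleen (n = 3), liver at 24 hours (n = 4) and liver at 72 hours (n = 5), with group means as lines and SD as bars. Cybb and Gtf2ird1 lie above every liver library in all 3 spleen libraries (for Cybb, 75.9 in spleen replicate 3 against at most 49.8 in the liver), Gtf2ird2 is highest in the 4 libraries of 24 hours, and the other genes overlap between groups.

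Cyba encodes the partner that stabilises gp91phox in the membrane. Its levels were 119.2, 118.5 and 50.5 normalized CPM in the spleen, 92.7, 101.4, 75.0 and 103.6 at 24 hours and 103.6, 91.9, 94.4, 72.9 and 71.4 at 72 hours. All groups overlapped, and the 95% confidence interval of the log2 fold change was -0.63 to 0.54 at 24 hours and -0.70 to 0.41 at 72 hours. Changes of up to about these sizes could not be seen with this number of libraries and the spread between them. Within a library, the proportion of the membrane pair differed between the spleen and every liver library. Cybb had 1.98, 2.24 and 1.5 counts per Cyba count in the spleen, 0.537, 0.456, 0.245 and 0.303 at 24 hours and 0.199, 0.293, 0.18, 0.248 and 0.127 at 72 hours. This ratio needs no scaling between libraries, and spleen replicate 3 lay with the other spleen libraries in it.

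Among the cytosolic subunits, Ncf1 and Ncf4 did not pass the test in any comparison. Ncf1, the organiser that tethers the complex, was at 252.8, 249.4 and 172.4 normalized CPM in the spleen, 213.8, 184.2, 113.1 and 146.6 at 24 hours and 268.9, 229.4, 311.7, 109.8 and 140.2 at 72 hours. Its log2 fold change was -0.45 ± 0.31 at 24 hours (edgeR adjusted p = 0.372) and -0.08 ± 0.29 at 72 hours (adjusted p = 0.944). Ncf4, whose product binds phosphoinositides of the phagosome, was at 59.8, 50.7 and 19.3 in the spleen, 38.4 to 44.6 at 24 hours and 59.6, 62.2, 75.5, 29.2 and 29.8 at 72 hours. Both genes were lower in 72-hour replicates 4 and 5 than in the other 72-hour libraries. Without those 2 libraries, an alternative chosen after seeing the data, the log2 fold change at 72 hours against the spleen was 0.27 for Ncf1 (edgeR adjusted p = 0.614) and 0.61 for Ncf4 (adjusted p = 0.294).

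Rac2, the GTPase that switches the assembled enzyme on, was at 168.4, 160.6 and 104.2 normalized CPM in the spleen, 103.4, 106.2, 78.5 and 93.4 at 24 hours and 116.6, 93.6, 108.3, 105.6 and 116.2 at 72 hours. Spleen replicate 3 overlapped both liver groups, while the other spleen libraries lay above all liver libraries. For Rac2 the log2 fold change was -0.60 ± 0.23 at 24 hours (edgeR adjusted p = 0.109) and -0.42 ± 0.22 at 72 hours (adjusted p = 0.358). Without spleen replicate 3, Rac2 passed the test at 24 hours (-0.79, adjusted p = 0.0341).

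The order of the oxidase genes by level differed between spleen and liver in the place of Cybb. Per kilobase of exon, the spleen means were 92.5 ± 38.0 (SD, n = 3) normalized CPM for Cyba, 61.4 ± 12.4 for Ncf1, 46.5 ± 11.3 for Rac2, 33.1 ± 17.5 for Cybb and 21.4 ± 10.5 for Ncf4, and each of these ranges overlapped that of its neighbour. At 24 hours Cybb was last, at 6.27 ± 2.49 (SD, n = 4) per kilobase against 20.3 ± 1.35 for Ncf4, and its range of 3.17 to 8.58 lay below the 19.0 to 22.1 of Ncf4. At 72 hours Cybb was at 3.16 ± 1.11 (SD, n = 5) per kilobase and Ncf4 at 25.4 ± 10.3, again without overlap. This order is that of the rows as deposited, and whether they hold sense or antisense reads was not tested. In bulk RNA, fewer cells that carry a transcript and less of it per cell cannot be told apart either.

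Taking all 7 genes, 3 were called at 24 hours against the spleen, 2 lower and 1 higher. Of all tested genes, 9.75% were called in this comparison, 4.40% lower and 5.35% higher. At 72 hours 2 of the 7 were called, both lower, against 5.33% of all genes (2.71% lower and 2.63% higher). Gtf2ird1, which was selected on this fall, is one of the lower genes in both counts. Between 72 and 24 hours 1 of the 7 was called, Gtf2ird2, against 4.49% of all genes (2.84% lower and 1.65% higher).

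**Figure D2:**
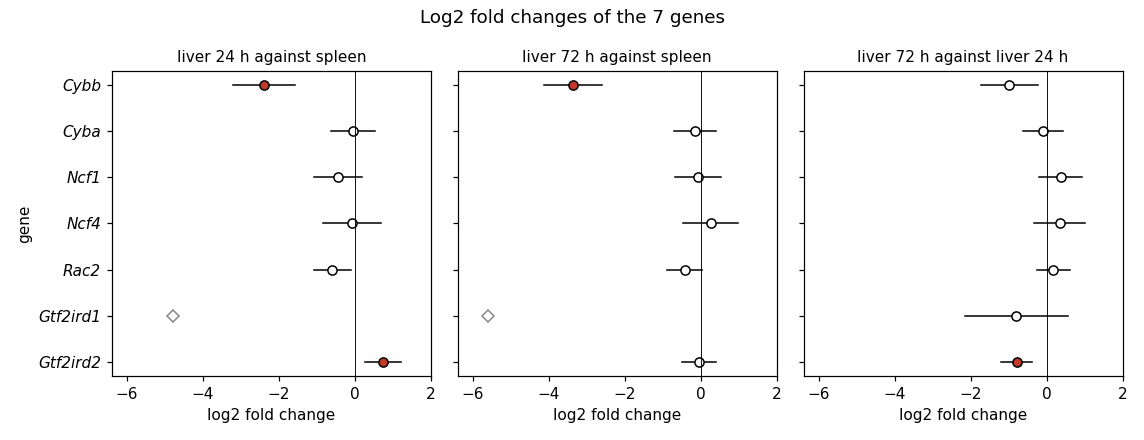
Log2 fold changes (horizontal axis) of the 7 genes in the 3 comparisons, with 95% confidence intervals as bars and red points for genes that passed the test. The diamonds are Gtf2ird1 against the spleen (-4.80 and -5.61), shown without interval because the gene was selected on them; Cybb is at -2.39 and -3.37 and Gtf2ird2 at 0.74 and -0.06.

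Gtf2ird2 and Ncf1 lie tail over tail on chromosome 5 (GRCm38). Gtf2ird2 runs from chr5:134184019 to 134224355 on the + strand and Ncf1 from chr5:134220053 to 134229625 on the - strand. Their exons share 408 bases in 3 segments, at chr5:134221793-134221918, chr5:134222001-134222222 and chr5:134223454-134223513. In the main coding transcript of Ncf1 these are in exons 11, 10 and 8, and 311 of the bases are coding in Ncf1. In Gtf2ird2 they overlap no coding part and fall in exons 16, 17 and 19 of 1 of its 6 annotated transcripts. The shared bases make up 6.58% of the exon bases of Gtf2ird2 and 11.1% of those of Ncf1, and 1748 exon bases of Gtf2ird2 lie within the span of Ncf1, its introns included. Cybb, Cyba, Ncf4 and Rac2 share no exon base with a gene on the other strand.

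Gtf2ird2 was among the most counted genes of every library, ranking from 4 to 12. It had 13011, 13788 and 14315 normalized CPM in the spleen. At 24 hours it had 23572, 20480, 22332 and 24895, above every library of the other groups. At 72 hours it had 15746, 16126, 15902, 7256 and 10824, with replicates 4 and 5 below all of the others. Per kilobase of exon, Gtf2ird2 averaged 2210.4 ± 105.8 normalized CPM (SD, n = 3) in the spleen against 61.4 ± 12.4 for Ncf1.

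Gtf2ird2 rose 1.67-fold at 24 hours (log2 fold change 0.74 ± 0.23, edgeR adjusted p = 0.0444) and was lower at 72 than at 24 hours (-0.79 ± 0.20, adjusted p = 0.0247). At 72 hours against the spleen the log2 fold change was -0.06 ± 0.21 (adjusted p = 0.945). The 24-hour call was near the threshold and was lost in 8 of 12 fits that left out 1 library, namely each of the 3 spleen libraries, each of the 4 libraries of 24 hours and 72-hour replicate 1 (adjusted p 0.0521 to 0.148). The difference between the liver groups was lost without 24-hour replicate 1 (adjusted p = 0.0732) or replicate 4 (0.0660). Without 72-hour replicates 4 and 5 together it was -0.53 (adjusted p = 0.0245), and the 72-hour value against the spleen was 0.22 (adjusted p = 0.431). As a share of all counts on genes, Gtf2ird2 took 1.61% to 1.67% in the spleen, 1.76% to 1.85% at 24 hours and 1.76%, 1.66%, 1.70%, 0.824% and 1.12% at 72 hours, and TMM factors were 0.740 to 0.860 at 24 hours against 1.03 to 1.24 elsewhere.

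Within a library, the 2 overlapping genes did not keep a fixed ratio. Ncf1 had 1.94, 1.81 and 1.20 counts per 100 Gtf2ird2 counts in the spleen, 0.907, 0.899, 0.507 and 0.589 at 24 hours and 1.71, 1.42, 1.96, 1.51 and 1.29 at 72 hours. The 24-hour libraries lay below all of the others, and 72-hour replicates 4 and 5, in which both genes were low, lay with the spleen. Expressed as the share of Gtf2ird2 in the summed counts of both genes, the means were 98.38% ± 0.382 in the 3 spleen libraries, 99.28% ± 0.205 in the 4 of 24 hours and 98.45% ± 0.252 in the 5 of 72 hours (± SD).

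The share was 0.904 percentage points higher at 24 hours than in the spleen (two-sided exact permutation test, p = 0.0286, the smallest that 35 assignments allow, adjusted p = 0.0429 over 3 pairs). It was lower at 72 than at 24 hours, by a difference of -0.835 points (exact p = 0.00794, the smallest that 126 assignments allow, adjusted p = 0.0238). The difference between 72 hours and the spleen was 0.0697 points (exact p = 0.804). Reads in the 408 shared bases cannot be assigned to either gene without the strand setting, and their part in these counts was not tested.

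**Figure D3:**
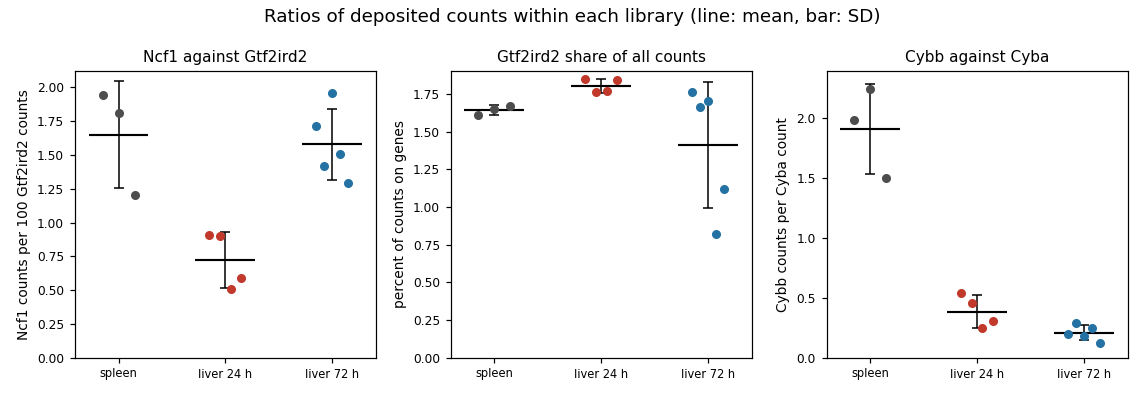
Ratios of deposited counts within each library, with the mean as a line and the SD as a bar: Ncf1 counts per 100 Gtf2ird2 counts, Gtf2ird2 as a percent of counts on genes, and Cybb counts per Cyba count. The first is lowest in the 4 libraries of 24 hours (0.507 to 0.907), the second is lowest in 72-hour replicates 4 and 5 (0.824 and 1.12), and the third separates the 3 spleen libraries (1.5 to 2.24) from every liver library.

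Gtf2ird1 lies 128 kb upstream of the Ncf1 start at its nearer end, at chr5:134357656-134456716 on the - strand. It had 216, 253 and 105 counts in the spleen, 4, 6, 6 and 0 at 24 hours and 6, 2, 5, 1 and 2 at 72 hours. In normalized CPM these were 100.2, 91.7 and 33.8 in the spleen, 0 to 4.24 at 24 hours and 0.691 to 3.25 at 72 hours. As a description of the values that selected it, the log2 fold change was -4.80 at 24 hours and -5.61 at 72 hours. The difference between the liver groups did not pass the test (-0.81 ± 0.65, 95% confidence interval -2.16 to 0.55, edgeR adjusted p = 0.509), with a handful of counts on each side. As for Cybb, spleen replicate 3 was the lowest spleen library and still lay above every liver library. Gtf2ird1 shares 194 exon bases with Gm42882 on the other strand, which had 4, 1 and 1 counts in the spleen and 0 in every liver library.

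The rest of the neighbourhood had few counts. Within 300 kb of Ncf1, 20 annotated genes have a row in the table, of which 8 had 0 counts in every library and 7 had more than 3 counts in any. Gtf2i, the third member of the TFII-I family and the gene next to Ncf1, had 11, 6 and 13 counts in the spleen, 1 to 4 at 24 hours and 1 to 8 at 72 hours, and did not pass the test (log2 fold change -0.91 ± 0.73 at 24 hours, edgeR adjusted p = 0.462, and -1.04 ± 0.67 at 72 hours, adjusted p = 0.482). Clip2, at the far side of Gtf2ird1, had 0 to 26 counts and B230377A18Rik 0 to 5. Castor2, Gm24139, Gm16020, Gm42885 and 2700029L08Rik had 1 to 3 counts at most, and 1700030N18Rik, Gm15627, Rcc1l, Gm43481, Gm43480, Mir3965, n-R5s178 and Gm26340 had none.

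**Figure D4:**
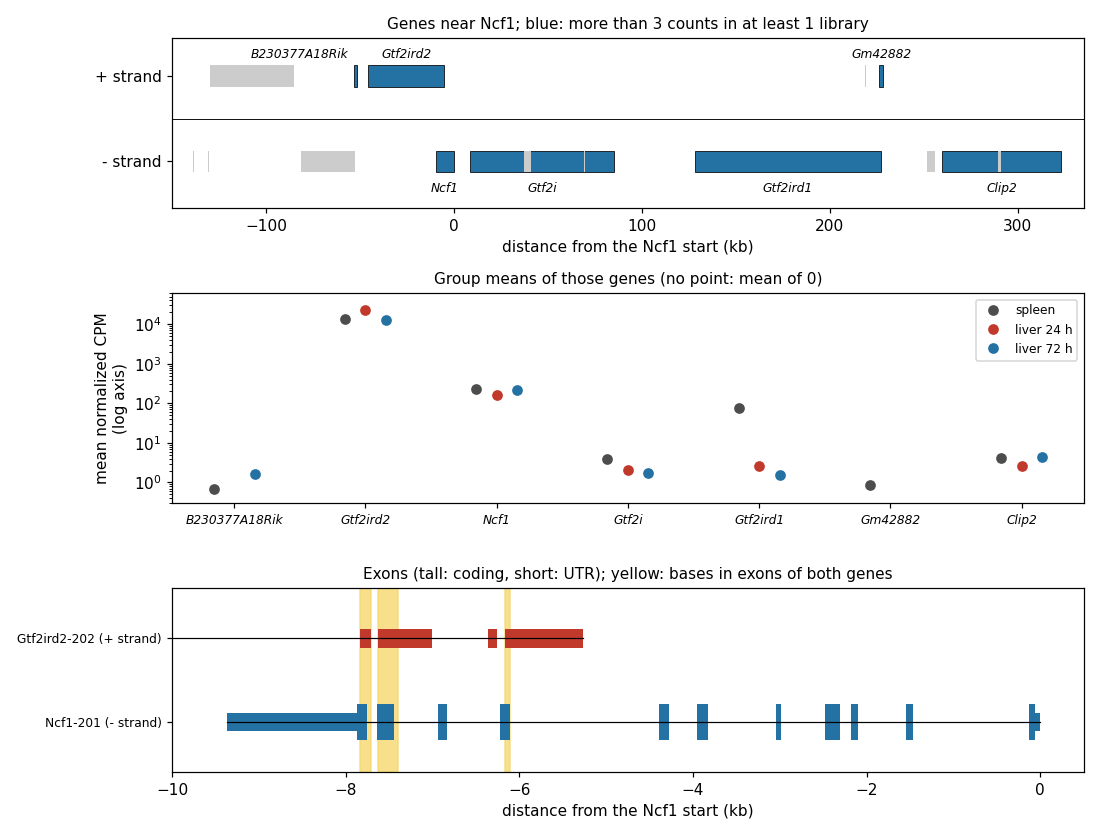
Top, genes within 300 kb of Ncf1 by strand and distance from its start in kb, those with more than 3 counts in blue. Middle, group means of those genes in normalized CPM on a log axis, where Gtf2ird2 (13170.7 to 22819.8) lies above Ncf1 (164.4 to 224.9) and the spleen mean of Gtf2ird1 (75.2) lies above those of the liver groups (2.59 and 1.5). Bottom, exons of the main Ncf1 transcript and of the 3′ end of the overlapping Gtf2ird2 transcript, with the 408 shared bases in yellow.

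A list of 30 further genes of oxidase assembly and activation was followed alongside, of which 25 passed the filter on low counts. At 24 hours 3 of the 25 were lower and 0 higher than in the spleen, where 4.40% of all tested genes were called lower and 5.35% higher, with a median log2 fold change of -0.31 beside -0.23 over all tested genes. At 72 hours the same counts were 3 and 0, against 2.71% and 2.63% of all genes (median -0.03 beside -0.02). Between 72 and 24 hours 0 of the 25 were called, against 4.49% of all genes (median 0.34 beside 0.18). The 3 genes were Arhgdib, S100a8 and S100a9 at both times. S100a8 and S100a9 encode the calprotectin subunits, calcium-binding proteins of the neutrophil cytosol, and Arhgdib encodes a GDP-dissociation inhibitor, which holds Rac proteins inactive in the cytosol.

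Arhgdib was at 286.7, 274.4 and 93.9 normalized CPM in the spleen, 59.3, 59.4, 24.8 and 40.1 at 24 hours and 63.4, 58.4, 58.5, 64.6 and 116.2 at 72 hours. It was lower at 24 hours (log2 fold change -2.24 ± 0.36, edgeR adjusted p = 4.00e-04) and at 72 hours (-1.60 ± 0.33, adjusted p = 0.00399), the latter lost without spleen replicate 1 (-1.35, adjusted p = 0.0529) or without 72-hour replicates 2 and 3 together (-1.42, adjusted p = 0.0551). It shares 136 exon bases with Pde6h on the other strand. S100a8 was lower by 2.98 ± 0.58 on the log2 scale at 24 hours (log2 fold change -2.98, edgeR adjusted p = 0.00191) and S100a9 by a log2 fold change of -2.71 ± 0.50 (adjusted p = 0.00132). At 72 hours the values were -1.76 ± 0.52 (adjusted p = 0.0496) for S100a8, a call lost in 10 of 12 fits that left out 1 library (adjusted p up to 0.300), and -1.87 ± 0.46 (adjusted p = 0.0148) for S100a9, lost without spleen replicate 1 (0.130) or 2 (0.137) or without 72-hour replicates 2 and 3 together (0.071). In both genes spleen replicate 3 was near the liver libraries, with 338.6 normalized CPM of S100a9 against 3937 and 3969 in the other spleen libraries and 215.2 to 865.8 in the liver.

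Cybc1, the chaperone of the membrane pair, had a log2 fold change of -0.54 ± 0.44 at 24 hours (edgeR adjusted p = 0.459), and Rac1, the relative of Rac2, -0.13 ± 0.22 (adjusted p = 0.753). Of the other NADPH oxidase family, Nox3, Nox4 and Duox2 were at 0 in every library, Noxa1 at 1 count at most and Duox1 at 4 at most, while Noxo1 had up to 6 and Nox1 up to 51 without passing the test (Nox1 at 24 hours, log2 fold change -0.64 ± 0.45, edgeR adjusted p = 0.390). Nox1 shares 399 exon bases with Cstf2 on the other strand.

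A list of 27 genes that remove or use superoxide and peroxide or supply NADPH had 22 that passed the filter. It also holds Nos2, whose product makes nitric oxide, a partner of superoxide. At 24 hours 2 were higher (Gpx3 and Nos2) and 1 lower (Txn1) than in the spleen, against 5.35% and 4.40% of all genes, with a median log2 fold change of 0.05 beside -0.23 over all genes. At 72 hours 1 of the 22 was higher (Gclc) and 0 lower, against 2.63% and 2.71% of all genes (median -0.03 beside -0.02). From 24 to 72 hours 1 was lower (Gpx3) and 0 higher, against 2.84% and 1.65% (median 0.24 beside 0.18). In both later comparisons 1 of 22 was near the share of all genes. Sod3, Mpo and Me1 had at most 2 counts in any library.

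Gpx3, an extracellular glutathione peroxidase, was at 21.8, 21.4 and 26 normalized CPM in the spleen, 61.8, 41.4, 45.3 and 32.1 at 24 hours and 23.9, 23.5, 17.6, 22.9 and 16.9 at 72 hours, so that the 24-hour group overlapped neither of the others. Its log2 fold change was 0.97 ± 0.30 at 24 hours (edgeR adjusted p = 0.0466, lost in 9 of 12 fits that left out 1 library, adjusted p up to 0.157) and -1.11 ± 0.26 from 24 to 72 hours (adjusted p = 0.0197, lost without 24-hour replicate 1, 0.0875, without 72-hour replicate 3, 0.0592, or without 72-hour replicates 2 and 3 together, 0.0876). Txn1, a thioredoxin that reduces peroxiredoxins, was at 69.6, 61.3 and 31.8 in the spleen and 20.8, 31.2, 19.8 and 16.8 at 24 hours (log2 fold change -1.28 ± 0.34, edgeR adjusted p = 0.0180), a call that ended when spleen replicate 1 (0.114) or 2 (0.0826) or else 24-hour replicate 4 (0.0595) was removed.

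Gclc and Nos2 rested on few counts. Gclc, which makes the first product of glutathione synthesis, had 2, 1 and 1 counts in the spleen, 5, 3, 4 and 6 at 24 hours and 16, 32, 25, 4 and 7 at 72 hours, all liver libraries lying above the spleen. Scaled to library size, 84 counts at 72 hours against 4 in the spleen gave a ratio of 15.4 (95% counting interval 5.79 to 57.8; edgeR adjusted p = 0.00299). The Gclc call was lost without 72-hour replicates 2 and 3, the libraries with few unaligned reads and the most Gclc counts (log2 fold change 3.24, edgeR adjusted p = 0.0537). Nos2, the inducible nitric oxide synthase, had 1, 2 and 1 counts in the spleen and 17, 15, 1 and 6 at 24 hours, a ratio of 13.0 (4.68 to 49.9; edgeR adjusted p = 0.0347), and 1 of the 4 libraries of 24 hours had no more than the spleen. The Nos2 call was lost without any 1 of the 3 spleen libraries or without 24-hour replicate 1 or 2 (adjusted p 0.0829 to 0.111). Counting intervals cover counting error only.

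**Figure D5:**
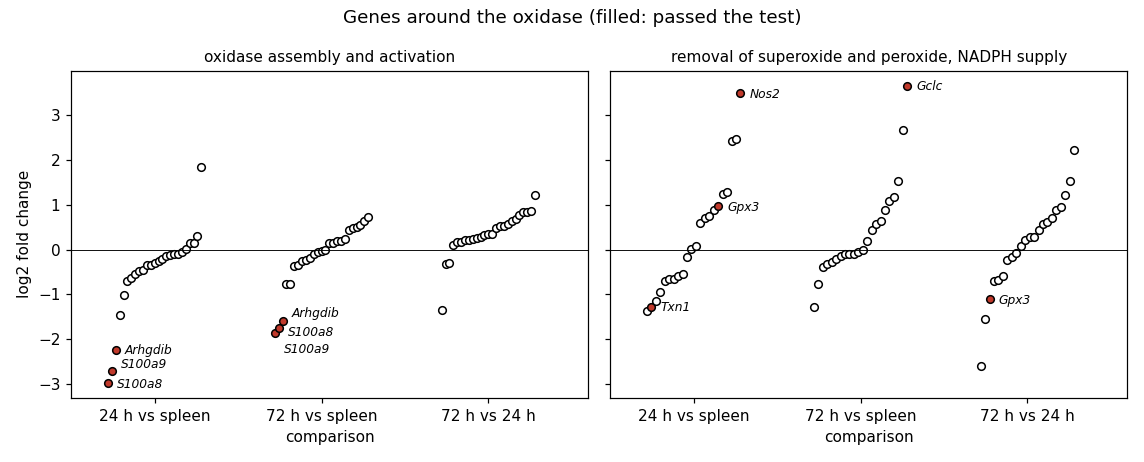
Log2 fold changes (vertical axis) of the tested genes of both lists in the 3 comparisons, each list sorted by value, with filled points for genes that passed the test. Arhgdib, S100a8 and S100a9 are the lowest called genes of the first list (-2.24 to -2.98 at 24 hours), and Gclc (3.66) and Nos2 (3.49) the highest of the second; both of these have 1 or 2 counts in each spleen library.

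Over the 12 libraries, the genes whose log2 CPM was most like that of Cybb were Haus1 (Pearson r = 0.957) and Abca13 (0.952). For the other oxidase genes they were Pgam1 (0.901) and Eno1 (0.899) for Cyba, Ak6 (0.915) and Ogfr (0.910) for Ncf1, Mlx (0.907) and mt-Tp (0.893) for Ncf4, and Arhgdib (0.955) and Itgb2 (0.936) for Rac2. For Gtf2ird1 they were Olfml2b (0.964) and Rpl31 (0.957), and for Gtf2ird2 Lrrc71 (0.952) and Gm26637 (0.947). None of the 7 genes was among the nearest of another. These libraries share organ and time within a group, so the values describe a shared pattern over 3 groups. Depth differed within a group, at 1267089 to 3017403 counts per library at 72 hours.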

How the data were processed

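RNA-seq counts per gene of 12 libraries were used. The authors aligned the reads to GRCm38 (the submitters' processing notes name STAR 2.7.9a), counted them with HTSeq-count and deposited the counts as whole numbers, without normalization. The 5 summary rows (96.8% to 97.3% of uniquely aligned reads were on no gene) entered neither library sizes nor tests. Of 48709 rows, 48349 matched the annotation used here (GENCODE, GRCm38).

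Genes with more than 1 CPM in at least 3 samples were kept (12488), scaled by TMM and compared by quasi-likelihood F-tests (edgeR 4.0.16, R 4.3.3) in 1 fit of 12 libraries, with Benjamini-Hochberg adjustment over all tested genes. The code was tested on simulated data. The median log2 fold change of all genes was -0.23, -0.02 and 0.18 in the 3 comparisons. Groups at 3 counts or fewer per library were compared by ratios of summed counts with exact 95% intervals. Log2 CPM used a prior count of 2. Counts per library (1267089 to 3017403) make 1 CPM equal to 1 to 3 counts.

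The members and lists were chosen with earlier results of these data known. The text names the 7 genes, their opposite-strand partners, genes within 300 kb of Ncf1, and from the lists those called, those at 3 counts or fewer and Cybc1, Rac1, Nox1, Noxo1 and Duox1 (these 5 chosen after their values were seen), with the 2 genes most like each of the 7. Alternatives were other scalings, filters, fold limits, tests (DESeq2 1.42.0, limma-voom 3.58.1), fits of 2 groups, a replicate block and leaving out libraries. A gene of the lists is not reported here.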

Additional observations from a re-analysis of the deposited data

Results flagged for a closer look

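Gtf2ird2 drew attention because its effect at 72 hours differed from that at 24 hours against the same spleen libraries: the difference between the effects was -0.79 on the log2 scale (edgeR adjusted p = 0.0247), from 0.74 at 24 hours to -0.06 at 72 hours. This is the same test as the comparison between the liver groups given above, not a further result. In normalized CPM, Gtf2ird2 was lower in all 5 libraries of 72 hours than in any of the 4 libraries of 24 hours. As a share of all counts on genes, without TMM factors, 72-hour replicate 1 and 24-hour replicate 2 were both at 1.76%. The 24-hour call against the spleen was lost in 8 of 12 fits that left out 1 library. No library of the liver groups stood apart from its group by Dixon's criterion for any of the 7 genes, in 14 groups checked; groups of 3 were not checked.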

How the results depend on the processing

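Cybb was called against the spleen in every alternative run, and the members called against the spleen were 2 or 3 throughout. These counts include Gtf2ird1, which was selected on its fall against the spleen. Between the liver groups the members called were 2 with no filter, 0 with a fold limit of 1, and 0 to 2 when 1 library was left out. Cybb passed there with no filter (-0.97, edgeR adjusted p = 0.0208).

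Genes called ranged over fits without 1 library from 575 to 1320 (24 hours against the spleen), 314 to 835 (72 hours against the spleen) and 182 to 796 (72 against 24 hours). The last was 951 with the DESeq2 Wald test. Without 72-hour replicates 2 and 3 the counts were 287 and 197 for the last 2 comparisons, and without replicates 4 and 5 (chosen after seeing the data) 1173 and 848.

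The share of Gtf2ird2 differed by 0.763 to 1.12 points at 24 hours without 1 library, where p cannot go below 0.0667 or 0.1, by 1.04 as a difference of medians (exact permutation p = 0.0571), by -0.0713 to 0.287 at 72 hours, and by -0.904 to -0.743 between the liver groups.

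Signs turned only in values that did not pass the test. Without 1 library, these ranged from -0.35 to 0.14 and -0.45 to 0.04 for Cyba at 24 and 72 hours, -0.43 to 0.23 and -0.10 to 0.56 for Ncf4, and at 72 hours -0.26 to 0.08 for Ncf1 and -0.14 to 0.09 for Gtf2ird2. Under the other settings, Cyba at 24 hours was 0.03 with upper-quartile scaling and 0.07 with limma-voom, and Ncf4 0.12 with limma-voom. Without 72-hour replicates 4 and 5, Cyba was 0.01 at 72 hours and 0.04 against 24 hours, and Ncf1 was 0.27 and Gtf2ird2 0.22 at 72 hours. Without 72-hour replicates 2 and 3, Ncf4 was -0.12 at 72 hours and -0.04 against 24 hours. The causes were not tested.

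Same-numbered libraries correlated from -0.12 to 0.13 in their deviations from the group means. The spleen and 24-hour pairs were at 0.09, 0.09 and 0.13, and the other pairs at -0.12 to 0.04. The labels give only a number, and whether same-numbered libraries shared a batch was not tested. With the replicate block, 1302, 874 and 599 genes were called, Cybb was -2.27 and -2.99 against the spleen, and Cyba (0.04 and 0.02), Ncf4 at 24 hours (0.13), Ncf1 (0.17) and Gtf2ird2 (0.07) at 72 hours turned sign. Gpx3 in both its comparisons and S100a8 at 72 hours (-0.92) lost their calls. The call of S100a8 at 24 hours was lost with limma-voom (-2.28), of S100a8 and S100a9 at 72 hours with limma-voom (-0.94 and -1.16) and the DESeq2 Wald test (-1.79 and -1.89), and of Nos2 with limma-voom (2.88). Without 72-hour replicates 2 and 3, the calls of Arhgdib, S100a8, S100a9 and Gclc at 72 hours and of Gpx3 in both its comparisons were lost (edgeR adjusted p 0.0514 to 0.102). Depth limits low genes, among them Gtf2ird1 in the liver, Gclc and Nos2 in the spleen, and Gtf2i.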
